A study of Homo sapiens with 4 samples.

Results

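GDF15, INHBE and 8 further genes of TGF-beta family signalling were followed across the 4 libraries of A673, an established Ewing sarcoma cell line. The 10 genes are the ligand genes GDF15, INHBE, INHBA, INHBB, GDF11, BMP4, TGFB1, TGFB2 and TGFB3 and the activin-binding inhibitor gene FST. They were taken by symbol out of 23228 genes in the deposited count tables, and the set was chosen by the scaled counts of these same 4 libraries, which were known when it was drawn up, so the levels and ratios below are descriptions without a test. The groups were siSMPD1 (siRNA against SMPD1, the acid sphingomyelinase gene), control_SMPD1 (scrambled siRNA), siGPR64 (siRNA against GPR64, an adhesion receptor gene) and control_GPR64 (scrambled siRNA). Each group is 1 library of cells harvested 48 h after lipid transfection, grown in medium with serum, insulin and beta-mercaptoethanol, and the titles pair each knockdown with its control. No ratio therefore has a replicate check, and every interval given is a 95% interval that covers counting error only. Gene counts totalled 18849264 in siSMPD1, 19614913 in control_SMPD1, 2534861 in siGPR64 and 2882854 in control_GPR64.

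Ligands of the TGF-beta family are secreted as dimers cut from larger precursors, and they signal through pairs of type I and type II serine/threonine kinase receptors to SMAD transcription factors. Activins are dimers of inhibin beta subunits, and follistatin, the product of FST, binds and neutralises them. GDF15 is a distant member that signals through GFRAL and its co-receptor RET instead of the classical receptors. GDF15 and INHBE are known as genes that cells switch on under stress, INHBE mostly in liver, and the transcription factors ATF4 and CHOP (the product of DDIT3) of the integrated stress response act on both.

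The labels were checked first. SMPD1 stood at 91.7 CPM (counts per 1000000 gene counts, after TMM scaling) in siSMPD1, against 414 CPM in control_SMPD1, and at 232 CPM in siGPR64, against 52.8 CPM in control_GPR64. GPR64 stood at 50.1 CPM in siGPR64, against 109 CPM in control_GPR64, and at 539 CPM in siSMPD1, against 388 CPM in control_SMPD1. Each target was thus lower in its own knockdown, but the 2 scrambled libraries did not match for either target. SMPD1 in control_GPR64 was below its level in siSMPD1. GPR64 was 3.57-fold lower in control_GPR64 than in control_SMPD1 (3.19 to 4.01), a larger ratio than the 2.16-fold of its own knockdown pair (1.76 to 2.68). The labels give the tissue as muscle, but MYOD1, MYOG and CHRNA1 were listed at 0 in every library and 12 skeletal muscle markers summed to between 1.71 and 3.07 CPM. The 11 Ewing sarcoma markers summed to between 1491 and 1758 CPM, with NKX2-2 at 88.0 CPM or more in each library. CD99, the surface protein by which this tumour is recognised, was listed at 0 in all 4, so a listed 0 cannot by itself be read as an absent transcript.

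GDF15 had 20 counts (1.06 CPM) in siSMPD1, against 58 counts (3.02 CPM) in control_SMPD1. It had 15 counts (5.88 CPM) in siGPR64, against 204 counts (69.9 CPM) in control_GPR64. The level was high in control_GPR64 alone, and its counting interval there (60.6 to 80.2 CPM) lay above those of the other 3 libraries. GDF15 was 2.8-fold lower in siSMPD1 than in control_SMPD1 (1.69 to 5.0) and 11.6-fold lower in siGPR64 than in control_GPR64 (7.04 to 21.6). Between the scrambled libraries it was 22.8-fold higher in control_GPR64 than in control_SMPD1 (17.2 to 31.5), a larger ratio than in either knockdown pair. Set against the control of the other pair, GDF15 was 63.2-fold lower in siSMPD1, but 1.93-fold higher in siGPR64 (1.02 to 3.48). GDF15 in siSMPD1 was thus below both controls, but a level below control_SMPD1 had to lie below the higher control_GPR64 as well. The direction in siGPR64 turned with the control. Of the genes measured in each pair, 0.275% had a lower log2 ratio than GDF15 in siSMPD1 and 0.359% in siGPR64.

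INHBE, which encodes the inhibin beta E subunit, had 53 counts (2.81 CPM) in siSMPD1, against 103 counts (5.36 CPM) in control_SMPD1. It had 6 counts (2.35 CPM) in siGPR64, against 70 counts (24 CPM) in control_GPR64. Both knockdown libraries were low, control_SMPD1 lay a little above them and control_GPR64 stood well above all 3. The SMPD1 pair gave INHBE 1.9-fold lower in siSMPD1 (1.36 to 2.71), just short of 2-fold. The GPR64 pair gave it 9.54-fold lower in siGPR64 (4.46 to 28.7). Control_GPR64 held 4.44-fold more INHBE than control_SMPD1 (3.25 to 6.12). With the controls exchanged, INHBE in siSMPD1 was 8.42-fold below control_GPR64 (5.89 to 12.4), and INHBE in siGPR64 was 2.26-fold below control_SMPD1 (1.01 to 6.36). INHBE was therefore lower in each knockdown library whichever scrambled library was used, although the last ratio rests on 6 counts. Since control_GPR64 stood above control_SMPD1, a library below control_SMPD1 had to lie below control_GPR64 as well.

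**Figure D1:**
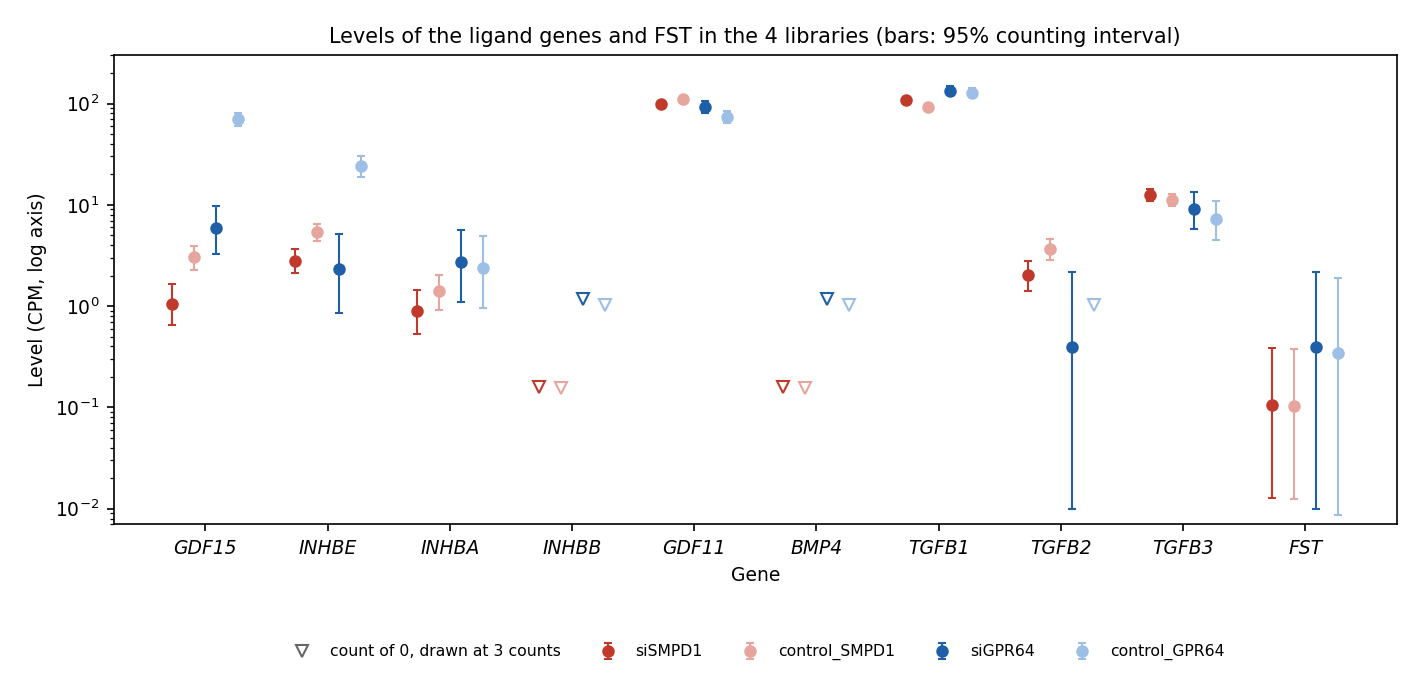
The level of each gene is plotted as CPM on a log axis for siSMPD1, control_SMPD1, siGPR64 and control_GPR64, in that order, with bars for the 95% counting interval and open triangles at 3 counts where the count was 0. GDF15 and INHBE stand highest in control_GPR64, at 69.9 and 24 CPM, while GDF11 and TGFB1 differ by less than 2-fold between libraries.

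A rule of size asked for a mean of 1 CPM or more in the pair, a ratio of 2-fold or more in either direction and a counting interval clear of equality. By this rule 1 of the 7 measured members, GDF15, was lower in siSMPD1 and none was higher. Of all 12749 genes measured in that pair, 3.6% were past the rule in either direction, 2.49% higher and 1.11% lower. In siGPR64, 2 of the 6 measured members, GDF15 and INHBE, were lower and none was higher. There 11.7% of 12830 genes were past the rule in either direction, 6.56% higher and 5.18% lower. GDF15 and INHBE were higher in control_GPR64 than in control_SMPD1, where 15.4% of 12798 genes were past the rule, 7.02% higher and 8.33% lower. With the controls exchanged, GDF15 and INHBE were lower in siSMPD1 than in control_GPR64, where 18.5% of all measured genes were past the rule, 10.5% higher and 8.02% lower. In siGPR64 against control_SMPD1 INHBE was lower, where 11.4% were past the rule, 6.18% higher and 5.25% lower. TGFB2 was also past the rule in these last 3 comparisons, but it reached the mean of 1 CPM only through the SMPD1 library in which it was high, so no tally of members is given for them. The median log2 ratio of the measured members was -0.63 in siSMPD1 and 0.12 in siGPR64, and that of all measured genes was -0.00 and 0.01. The siSMPD1 and siGPR64 pairs use different controls, but each control also enters the ratio between the scrambled libraries.

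Among the other activin genes, INHBA encodes the beta A subunit of activin A. It had 17 counts (0.901 CPM) in siSMPD1, 27 counts (1.41 CPM) in control_SMPD1 and 7 counts in each library of the GPR64 pair (2.74 CPM in siGPR64 and 2.4 CPM in control_GPR64). The counting interval of the ratio included equality in both pairs, with a log2 ratio of -0.63 in siSMPD1 (-1.61 to 0.29) and of 0.18 in siGPR64 (-1.55 to 1.93). INHBB, the beta B subunit gene, had 0 counts in all 4 libraries. By counting error alone, a count of 0 allowed up to 0.159 CPM in siSMPD1, 0.156 CPM in control_SMPD1, 1.18 CPM in siGPR64 and 1.03 CPM in control_GPR64. These limits do not cover transcripts whose reads were not counted, and CD99 was also listed at 0. FST had 2 counts in siSMPD1, 2 counts in control_SMPD1, and 1 count in each of siGPR64 and control_GPR64, which is too few to set the libraries apart.

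GDF11, a close relative of myostatin known for patterning the trunk of the embryo, was among the most abundant members. It stood at 99.4 CPM in siSMPD1, against 111 CPM in control_SMPD1, and at 92.1 CPM in siGPR64, against 73.3 CPM in control_GPR64. The log2 ratio was -0.15 in siSMPD1 (-0.24 to -0.06) and 0.33 in siGPR64 (0.06 to 0.60). Both directions turned with the control of the other pair, to 0.44 in siSMPD1 (0.23 to 0.65) and -0.26 in siGPR64 (-0.46 to -0.07). The largest gap was between the scrambled libraries, at 1.51-fold lower in control_GPR64 than in control_SMPD1 (1.31 to 1.74). BMP4, a bone morphogenetic protein gene, had 0 counts in every library.

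The 3 TGF-beta genes differed in their pattern over the libraries. TGFB1, the isoform known for fibrosis and immune suppression, stood at 109 CPM in siSMPD1, against 92.3 CPM in control_SMPD1, and at 134 CPM in siGPR64, against 128 CPM in control_GPR64. Its log2 ratio was 0.24 in siSMPD1 (0.15 to 0.34) and 0.06 in siGPR64 (-0.15 to 0.28), and the GPR64 pair lay above the SMPD1 pair. Against control_GPR64 the log2 ratio of TGFB1 in siSMPD1 turned to -0.23 (-0.39 to -0.07). TGFB2 had 38 counts (2.01 CPM) in siSMPD1, against 70 counts (3.64 CPM) in control_SMPD1, which is 1.8-fold lower (1.2 to 2.76) and short of the rule. It had 1 count in siGPR64 and 0 counts in control_GPR64, so no ratio is given there. With 3 counts set in place of the 0 in control_GPR64, TGFB2 was 3.55-fold lower there than in control_SMPD1. The counting interval from the listed counts, 0 against 70, began at 2.81-fold lower. TGFB3 stood at 12.5 CPM in siSMPD1, against 11.2 CPM in control_SMPD1, and at 9.01 CPM in siGPR64, against 7.19 CPM in control_GPR64. Its ratio had a counting interval that included equality in both pairs.

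**Figure D2:**
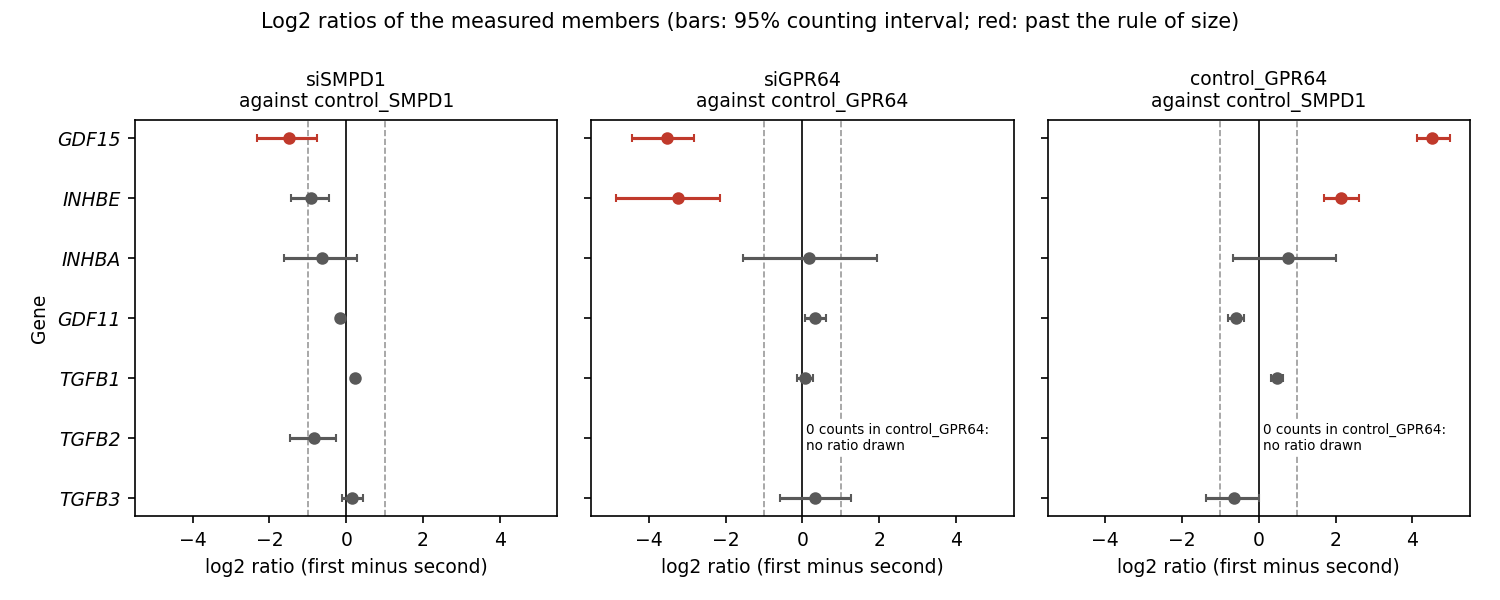
Log2 ratios of the members with counts to compare are plotted on the horizontal axis for siSMPD1 against control_SMPD1, siGPR64 against control_GPR64 and control_GPR64 against control_SMPD1, with bars for the 95% counting interval, dashed lines at 2-fold and red for genes past the rule of size. No ratio is drawn for TGFB2 where control_GPR64 had 0 counts. GDF15 and INHBE lie left of 0 in both knockdown panels and right of 0 between the scrambled libraries, at 4.51 and 2.15.

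Levels of different genes were compared per kilobase of exon, with exon lengths from GENCODE 29 on GRCh38, an annotation on another build than that of the counts. On this scale TGFB1 had the highest level of the 10 members in siSMPD1 (39.5 CPM per kb), control_SMPD1 (33.3) and siGPR64 (48.4), with GDF11 next in each (11.5, 12.8 and 10.6 CPM per kb). In control_GPR64 GDF15 came first at 58.2 CPM per kb, TGFB1 was at 46.3, INHBE at 9.87 and GDF11 at 8.47 CPM per kb. GDF15 was at 0.883, 2.52 and 4.9 CPM per kb in siSMPD1, control_SMPD1 and siGPR64. In that annotation no exon of GDF15 or INHBE shares a base with an exon of another gene. Exons of TGFB3 share 163 bases with an antisense transcript and those of TGFB2 share 1371 bases with an overlapping transcript on its own strand, and neither partner is listed in the count tables.

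The proximal promoter is shown for GDF15, the member with the largest ratio within each pair, for TGFB2, which was low in the GPR64 pair, and for TGFB1, which was near level within both pairs. RefSeq windows on GRCh38.p14 run from 250 bases before to 50 bases after the start site, and capitals mark matches to the motifs named below. The GDF15 window is chr19:18385908-18386207 on the plus strand, the TGFB2 window chr1:218345086-218345385 on the plus strand and the TGFB1 window chr19:41353873-41354172 on the minus strand.
GDF15: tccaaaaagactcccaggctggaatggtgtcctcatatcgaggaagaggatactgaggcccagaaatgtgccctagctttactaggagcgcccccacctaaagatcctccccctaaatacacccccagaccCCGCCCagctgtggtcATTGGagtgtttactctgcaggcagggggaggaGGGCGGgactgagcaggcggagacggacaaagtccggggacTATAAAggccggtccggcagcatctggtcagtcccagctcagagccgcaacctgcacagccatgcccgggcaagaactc
TGFB2: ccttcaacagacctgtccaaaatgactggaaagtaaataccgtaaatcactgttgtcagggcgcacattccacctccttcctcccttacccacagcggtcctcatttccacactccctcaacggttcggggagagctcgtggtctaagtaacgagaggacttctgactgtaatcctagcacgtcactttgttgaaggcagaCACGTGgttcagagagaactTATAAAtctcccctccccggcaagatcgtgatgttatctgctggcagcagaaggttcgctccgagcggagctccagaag
TGFB1: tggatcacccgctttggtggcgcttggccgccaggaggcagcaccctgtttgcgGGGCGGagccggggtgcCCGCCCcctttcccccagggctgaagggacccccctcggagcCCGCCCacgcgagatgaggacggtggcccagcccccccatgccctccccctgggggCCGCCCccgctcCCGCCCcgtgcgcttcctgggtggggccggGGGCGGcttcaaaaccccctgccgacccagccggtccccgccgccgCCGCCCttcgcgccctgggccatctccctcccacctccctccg

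Of the 10 members, 9 matched the promoter table, and INHBE did not. The motifs were searched on both strands: the amino acid response element core bound by ATF4 with C/EBP partners (TGATGNAA), the cAMP response element (TGACGTCA), the AP-1 site (TGANTCA), the E-box (CACGTG), the GC box (GGGCGG), the TATA box (TATAAA) and the CCAAT box (CCAAT). GDF15 held a TATA box that starts 29 bases before the start site, 2 GC boxes and a CCAAT box. TGFB2 held a TATA box 29 bases before its start site and an E-box, and TGFB1 held GC boxes without a TATA box. In capitals, a GC box or CCAAT box on the opposite strand reads CCGCCC or ATTGG. The E-box of TGFB2 reads the same on both strands and matched on each, and no other 2 matches overlap in these 3 windows. Of 35116 windows in the table, 11.5% held the TATA box, 45.0% the GC box, 34.6% the CCAAT box and 7.26% the E-box. The AP-1 site was in 7.71% and the cAMP response element in 1.85% of them. The amino acid response core was found in 3.62% of all windows and in no window of the 9 members, which says only that these letters are not in these windows.

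Other ligand genes of the family were mostly at 0 or near it. Of 24 further ligand genes, 11 had 0 counts in all 4 libraries, and 4 were measured in the SMPD1 pair and 6 in the GPR64 pair. GDF6, a relative of the bone morphogenetic proteins known for joint and eye development, stood at 326 CPM in siSMPD1, against 281 CPM in control_SMPD1, and at 242 CPM in siGPR64, against 288 CPM in control_GPR64. No further ligand passed the rule in siSMPD1. BMP7, a ligand of kidney and skeletal development, stood at 11.8 CPM in siGPR64, against 33.9 CPM in control_GPR64, which is 2.86-fold lower (1.9 to 4.5). BMP7 was at 3.13 CPM in siSMPD1 and 3.18 CPM in control_SMPD1, so siGPR64 was higher than control_SMPD1, with a log2 ratio of 1.87 (1.21 to 2.54). BMP7, AMH, BMP5 and GDF10 were past the rule as higher in control_GPR64 than in control_SMPD1. BMP5 and GDF10 reached the mean of 1 CPM only through control_GPR64, so no count over the list is given.

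Among receptors, GFRAL had 0 counts in every library, while RET, its co-receptor, stood at 91.8 CPM in siSMPD1, 111 CPM in control_SMPD1, 203 CPM in siGPR64 and 117 CPM in control_GPR64. Of the 16 receptor and co-receptor genes measured in the SMPD1 pair, 2 were higher and none lower, where 2.49% of all measured genes were higher. TGFBR1, the type I receptor for TGF-beta, stood at 10.5 CPM in siSMPD1, against 4.89 CPM in control_SMPD1, which is 2.14-fold higher (1.67 to 2.77). RGMA, a co-receptor for bone morphogenetic proteins, was 2.38-fold higher (1.9 to 3.01). Against control_GPR64, the log2 ratio of TGFBR1 in siSMPD1 was 0.24 (-0.36 to 0.89) and that of RGMA 1.85 (1.0 to 2.88). Of 17 measured in the GPR64 pair, BAMBI, a decoy receptor without a kinase domain, was 2.51-fold higher in siGPR64 (1.86 to 3.45), and ACVR2A, a type II activin receptor, was 2.14-fold lower (1.45 to 3.24). In that pair 6.56% of all measured genes were higher and 5.18% lower. Against control_SMPD1 neither gene was past the rule in siGPR64, with log2 ratios of 0.25 and -0.39.

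Genes for extracellular inhibitors and carriers, which hold ligands away from their receptors, gave 1 higher of 12 measured genes in siSMPD1, where 2.49% of all measured genes were higher. In siGPR64 they gave 2 higher and 1 lower of 11, where 6.56% were higher and 5.18% lower. Of these, WFIKKN1, LRRC33 and DCN reached the mean of 1 CPM only through the library in which they were high, so the counts say little about the list. WFIKKN1, a secreted inhibitor of myostatin and GDF11, had 36 counts in siSMPD1, against 12 counts in control_SMPD1, and was 2.97-fold higher (1.55 to 6.45). FSTL1, a secreted follistatin-like glycoprotein, stood at 202 CPM in siGPR64, against 51.0 CPM in control_GPR64, which is 3.94-fold higher (3.29 to 4.78). Its level was 94.5 CPM in siSMPD1, against 175 CPM in control_SMPD1, so control_GPR64 was the low library. LRRC33, which encodes a protein that anchors latent TGF-beta1, had 12 counts in siGPR64, against 1 count in control_GPR64, and was 9.3-fold higher (2.03 to 587). DCN, the gene of the TGF-beta-binding proteoglycan decorin, had 2 counts in siGPR64, against 12 counts in control_GPR64, and was 4.44-fold lower (1.17 to 48.3). Against control_SMPD1 DCN was short of the rule in siGPR64, with a log2 ratio of -1.0 (-4.15 to 0.93). Among genes for precursor processing, TLL1, a protease of the BMP1 family, was the single gene of 5 past the rule, at 2.02-fold lower in siGPR64 (1.5 to 2.77), with a log2 ratio of -0.03 against control_SMPD1.

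None of 16 SMAD pathway genes was past the rule in either knockdown pair, with list medians of 0.01 in siSMPD1 and -0.16 in siGPR64. SMAD3, the effector of TGF-beta and activin, stood at 71.7 CPM in siGPR64, against 43.8 CPM in control_GPR64. SKIL, a repressor of SMAD proteins, stood at 23.5 CPM in siGPR64, against 43.2 CPM in control_GPR64. Against control_SMPD1 the log2 ratio in siGPR64 was -0.02 for SMAD3 (-0.25 to 0.2) and -0.44 for SKIL (-0.85 to -0.05). Of 18 measured target genes of TGF-beta and activin, 2 were higher and 1 lower in siSMPD1, and 4 were higher and 1 lower in siGPR64, with medians of 0.14 and 0.22. Over all measured genes 2.49% were higher and 1.11% lower in siSMPD1, and 6.56% higher and 5.18% lower in siGPR64, which is also the background of the BMP target genes. BHLHE40, a repressor of the circadian clock, was 2.69-fold higher in siSMPD1 (2.21 to 3.29). CTGF, the lower gene in siSMPD1, stood at 2.91 CPM there, against 7.6 CPM in control_SMPD1. In siSMPD1 it was 3.14-fold below control_GPR64 (1.92 to 5.12), where CTGF stood at 9.25 CPM. A level below control_SMPD1 had to lie below this higher control as well. TGFBI, a secreted adhesion protein named for its induction by TGF-beta, stood at 274 CPM in siGPR64, against 49.3 CPM in control_GPR64, which is 5.54-fold higher (4.64 to 6.7). TGFBI was at 225 CPM in siSMPD1 and 323 CPM in control_SMPD1, so control_GPR64 was again the low library. COL1A2, a collagen I chain, was 2.21-fold higher in siGPR64 (2.0 to 2.44), with a log2 ratio of -0.49 against control_SMPD1. CDKN1A, the cell cycle inhibitor gene, was 2.05-fold higher in siSMPD1 (1.86 to 2.27) and 2.94-fold lower in siGPR64 (2.38 to 3.67). Both directions turned with the control of the other pair, to a log2 ratio of -1.04 in siSMPD1 and 0.52 in siGPR64. Of 11 measured BMP target genes none was past the rule in siSMPD1, while BAMBI was higher and ID1, an inhibitor of differentiation factors, lower in siGPR64 at 2.08-fold (1.35 to 3.33). Against control_SMPD1 the log2 ratio of ID1 in siGPR64 was 0.13 (-0.47 to 0.69).

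Genes of the integrated stress response, a list chosen with these libraries known, were lower alongside GDF15 and INHBE. Of 15 measured, 6 were lower and none higher in siSMPD1, where 1.11% of all measured genes were lower, and 11 were lower and none higher in siGPR64, where 5.18% were. Their median log2 ratio was -0.80 in siSMPD1 and -1.55 in siGPR64. TRIB3, a pseudokinase, stood at 91.5 CPM in siSMPD1, against 225 CPM in control_SMPD1, and at 107 CPM in siGPR64, against 671 CPM in control_GPR64. SESN2, a leucine sensor, was 4.09-fold lower in siGPR64 (3.34 to 5.08) and short of the rule in siSMPD1 at 1.64-fold lower (1.5 to 1.79). ATF5, a further stress transcription factor gene, was 4.29-fold lower in siSMPD1 (4.12 to 4.47). DDIT4, an mTORC1 inhibitor, was 1.52-fold higher in siSMPD1 (1.44 to 1.61) and 5.55-fold lower in siGPR64 (4.49 to 6.97). Its log2 ratio in siSMPD1 was -0.42 against control_GPR64. As for the 2 ligand genes, 7 of the 15 were higher in control_GPR64 than in control_SMPD1 and none lower, with a median of 0.99, where 7.02% of all measured genes were higher. Against control_SMPD1, the list had a median of -0.53 in siGPR64, with 3 of 15 lower, where 5.25% of all measured genes were lower. Against control_GPR64 it had a median of -1.67 in siSMPD1, with 12 of 15 lower, where 8.02% were lower. However, 14 of the 15 had a positive log2 ratio in control_GPR64 against control_SMPD1. Any of these that lay below control_SMPD1 had to lie below control_GPR64 as well, so the 12 add little to the SMPD1 pair.

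**Figure D3:**
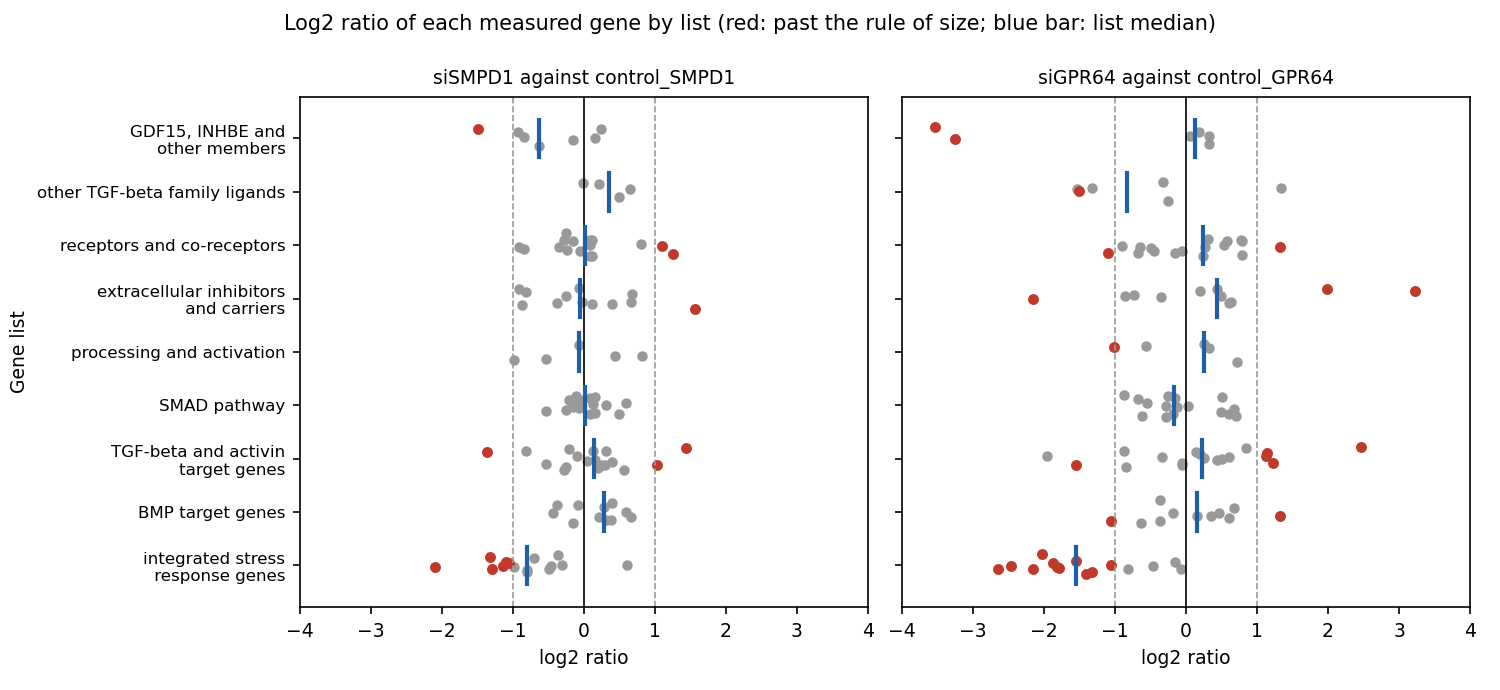
Each point is the log2 ratio of a measured gene on the horizontal axis, by gene list, for siSMPD1 against control_SMPD1 and siGPR64 against control_GPR64, with red for genes past the rule of size, dashed lines at 2-fold and a blue bar at the list median. The integrated stress response list lies furthest to the left in siSMPD1 and siGPR64, with medians of -0.80 and -1.55.

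The genes whose level followed GDF15 most closely over the 4 libraries were found by the distance between centred log2(CPM + 1) profiles among 12886 other genes. They were GABRA4 (a GABA receptor subunit), VGF (a secreted neuropeptide precursor), ARRDC4 (an alpha-arrestin), EGR1 (an immediate-early transcription factor) and TM6SF1, at distances of 0.71 to 1.15. VGF, for example, stood at 2.12 CPM in siSMPD1, 6.09 CPM in control_SMPD1, 18.8 CPM in siGPR64 and 102 CPM in control_GPR64. Among the 5 nearest profiles of INHBE were TSLP (an epithelial cytokine), SYT4 (a synaptotagmin), TRIB3 and TXNIP (the thioredoxin-interacting protein), at distances of 0.33 to 0.55. INHBE ranked 52 among the profiles nearest to GDF15, GDF15 ranked 3082 among those nearest to INHBE at the same distance of 2.08, and the 2 genes differed in siGPR64, where GDF15 was above and INHBE below its level in control_SMPD1. With 4 libraries these are descriptions, and SYT4 and GABRA4 had 20 or fewer counts in at least 3 of the 4 libraries.

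**Figure D4:**
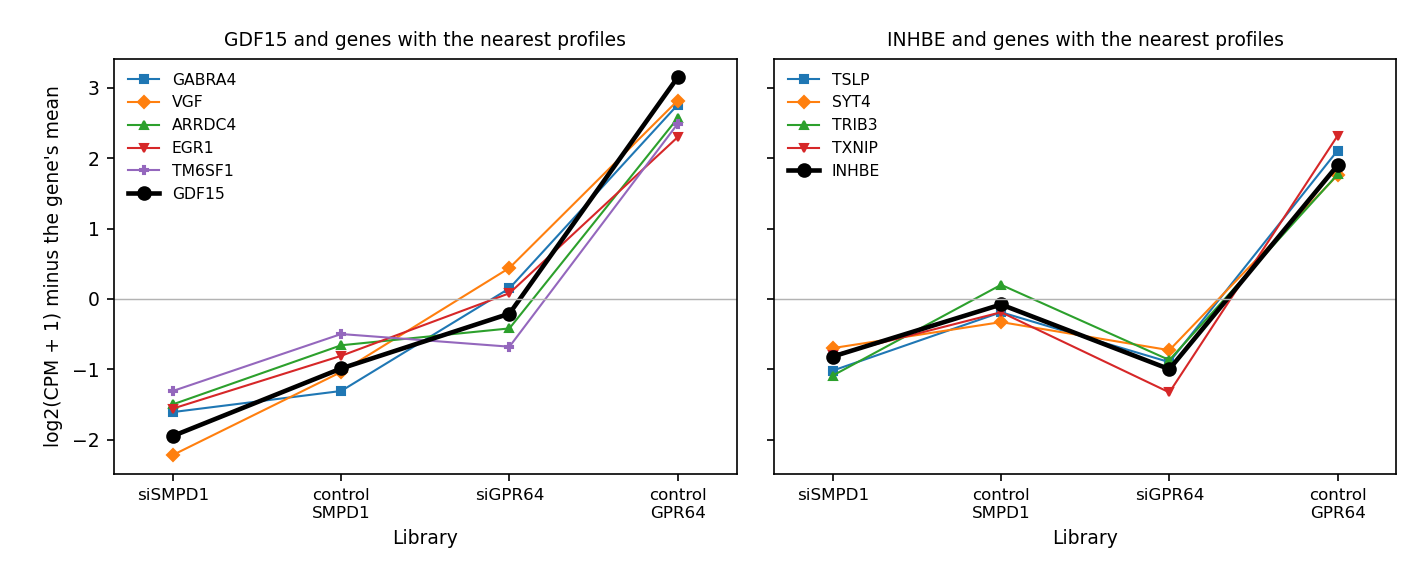
The level of GDF15, INHBE and the genes named above as nearest to each is plotted as log2(CPM + 1) minus the mean of that gene, for siSMPD1, control_SMPD1, siGPR64 and control_GPR64, with lines that only link the points of a gene. All plotted profiles peak in control_GPR64, and INHBE and the genes drawn with it have siGPR64 below control_SMPD1 while GDF15 has it above.

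Summed markers of other cell types were also lowest in control_GPR64. The 8 fibroblast markers summed to 388 CPM in siSMPD1, 376 CPM in control_SMPD1, 341 CPM in siGPR64 and 173 CPM in control_GPR64, with 2 of the 8 at 0 in each library of the GPR64 pair. Most of this sum was THY1, at 358 CPM in siSMPD1, 347 CPM in control_SMPD1, 324 CPM in siGPR64 and 159 CPM in control_GPR64. DCN, FAP and POSTN instead had their highest listed level in control_GPR64, at 4.11, 1.37 and 0.685 CPM, but on 12, 4 and 2 counts. The counting intervals of FAP (0.373 to 3.51 CPM) and POSTN (0.083 to 2.47 CPM) there overlapped those of every other library, so their order is not settled. The 8 epithelial markers summed to 149.6, 181, 170.0 and 85.3 CPM in the same libraries, mostly through KRT8 and KRT18, and CDH1 was at 0 or at 1 count in every library. The 8 immune markers summed to between 3.08 and 13.4 CPM, with PTPRC at 3 counts or fewer. HTSeq entries outside the gene counts were 44.1% in siSMPD1, 44.8% in control_SMPD1, 36.5% in siGPR64 and 37.6% in control_GPR64. The part of these differences in the ratios of GDF15, INHBE and the wider lists was not tested. In cultures measured in bulk, fewer cells with a transcript and less transcript per cell cannot be told apart.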

How the data were processed

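Per the labels' protocols, paired-end libraries were made from A673 total RNA after ribosomal RNA depletion. Alignment to hg19 is listed in the submitters' processing notes, beside HTSeq, SAMtools, TopHat2 and bcl2fastq. For these tools the version, annotation, strand setting and counting mode were not given in the sources. Each deposited file lists whole-number counts by gene symbol for 1 library, which the authors left unnormalized. The 5 HTSeq summary lines were left out of library sizes. Reads that align to several places are absent from the counts, and without a stated strand setting a gene and its antisense partner cannot be told apart.

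Counts were scaled with TMM factors (edgeR 4.0.16, R 4.3.3) from genes that reached 1 CPM in any library. A prior of 0.5 count, scaled by library size, was added before log2 ratios. Ratios carry a 95% Clopper-Pearson interval (exact, from how a gene's reads divide between 2 libraries), and levels an exact Poisson interval. Reads have no molecular identifiers, so intervals and the floor of 3 counts cover counting error only. Genes named outside the 10 members are, per list, up to 4 past the rule by the interval bound furthest from 0, otherwise up to 2 by size, and the 5 nearest profiles of GDF15 and of INHBE; not all are printed, 1 near profile of INHBE is not reported here, and RET, GFRAL, GDF6, the 3 ligands named with BMP7 and the single marker genes were chosen after their values were seen. The members, the 8 wider lists and the 5 marker lists were chosen with earlier results of these data known. As alternatives, both controls were taken as replicates of 1 group in edgeR's quasi-likelihood test and in DESeq2 1.42.0, and the scaling, thresholds and control library were changed. Promoter windows are RefSeq's on GRCh38.p14, not the build of the counts.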

Additional observations from a re-analysis of the deposited data

How the results depend on the processing

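All 80 member ratios recomputed with DESeq2 size factors, library totals, upper-quartile factors or a prior of 2 counts stayed inside their main counting interval. The largest shift, 1.95, was that of TGFB2 between the controls with a prior of 2 counts, whose interval has no lower limit. The control library mattered more. Against the control of the other pair, the log2 ratio of GDF15 in siGPR64 turned to 0.95. In siSMPD1, 2390 genes were then past the rule, 18.5% of those measured. No tally of members is given there, since TGFB2 reached the mean of 1 CPM only through siSMPD1. Against both controls summed, 933 genes were past the rule in siSMPD1 and 903 genes in siGPR64. The log2 ratios of GDF15 and INHBE were then -5.05 and -2.37 in siSMPD1, and -2.61 and -2.58 in siGPR64. Without a CPM minimum 697 genes were past it in siSMPD1, and with a minimum of 5 CPM 198 genes and 0 members, since GDF15 lies below that level. At 1.5-fold, 1535 of 12749 measured genes and 3 of 7 measured members were past the rule in siSMPD1. In siGPR64 these were 3148 of 12830 genes and 2 of 6 members, and between the controls 3985 of 12798 genes. The main counts were 459, 1506 and 1965 genes. The share of higher genes among those past the rule moved by over 10 percentage points for siSMPD1 with both controls summed, to 431 higher and 502 lower, and with the control of the other pair, to 1356 higher and 1034 lower, against 318 higher and 141 lower in the main comparison. The cause of these changes was not tested.

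With both controls as replicates of 1 group, edgeR's quasi-likelihood test called 0 genes and 0 members in siSMPD1 (179 genes at an unadjusted p under 0.05) and 0 genes and 0 members in siGPR64 (313 genes). DESeq2 called 1 gene, ATF5, and 0 members in siSMPD1, at an adjusted p of 0.00206, and 0 genes and 0 members in siGPR64 (179 and 211 genes at an unadjusted p under 0.05). Each model tested 13664 genes, and every count at an unadjusted p under 0.05 was below a 0.05 share of these. No paired analysis of either knockdown by itself was possible because each group has 1 library. A fit of both knockdowns as 1 condition with pair as a block was not run. The 2 libraries of the GPR64 pair are shallow, so members under about 1 CPM (INHBB, BMP4, FST and TGFB2) could not be set apart from 0 there.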
